A study of Rattus norvegicus with 6 samples.

Results

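The 4 transcripts described here encode dual-specificity phosphatases of rat cells, Dusp6, Dusp1, Dusp4 and Dusp5. They were selected by Ensembl identifier: ENSRNOG00000023896 for Dusp6, ENSRNOG00000003977 for Dusp1, ENSRNOG00000011921 for Dusp4 and ENSRNOG00000014061 for Dusp5. All 4 were among the 18413 genes of the deposited count table, and all 4 passed the filter on low counts, as did 14050 genes in all. The choice was made with results of the treatment contrast known, Dusp6 being among the genes that stood out in it, so the differences between treatments below are descriptions and support nothing further. The deposited tables hold no symbols, and the pairing of identifiers with symbols came with the selection.

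GH3 is a cell line from a rat pituitary tumour, labelled wild type (WT) in all 6 libraries. The 3 control libraries carry the label NC, and the other 3 libraries come from cells exposed to thyrotropin-releasing hormone (TRH) at 100 nM. The comparison asks how the hormone alters messenger RNA levels. How long TRH was applied, and what the controls received, is not stated in the labels. Cells of all groups grew in F10 medium with horse and fetal bovine serum, and the labels do not tie samples to separate cultures, so the spread and p-values below may measure technical variation only. Library totals ran from 43504159 to 52134239 counts. The libraries differed by a trend with gene length, on which control replicate 1 and TRH replicate 3 were the extremes for all but the shortest member, and fold changes are given with and without these 2 libraries.

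Dual-specificity phosphatases of this family remove phosphate from both the threonine and the tyrosine of the activation loop of MAP kinases and thereby switch them off. ERK, the MAP kinase that responds to growth factors and to many hormones, increases transcription of several of these phosphatases, which closes a negative feedback loop. The TRH receptor of pituitary cells couples to Gq and phospholipase C, and protein kinase C and ERK are activated downstream. DUSP6 is a cytoplasmic enzyme selective for ERK. DUSP5 is its nuclear counterpart, also selective for ERK. DUSP1 and DUSP4 are nuclear enzymes with a broader range that includes p38 and JNK, and Dusp1 is a classical immediate early gene.

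The promoters of the members are shown first, because cyclic AMP response elements (CRE) and serum response elements are the sequences through which such signals reach many immediate early genes. Sequences were taken from the RefSeq promoter table of assembly GRCr8, which covers 250 bases before to 50 bases after an annotated start. The table was matched by symbol for Dusp6, Dusp1 and Dusp5. Dusp4 has no sequence shown here. Only bases upstream of the whole RefSeq gene are printed, 5′ to 3′ on the plus strand. Capitals mark the short CRE motif TGACG on either strand, the full palindromic CRE TGACGTCA, which holds the short motif on both strands, and CArG boxes, the core of the serum response element.

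Dusp1, chr10:17184603-17184852: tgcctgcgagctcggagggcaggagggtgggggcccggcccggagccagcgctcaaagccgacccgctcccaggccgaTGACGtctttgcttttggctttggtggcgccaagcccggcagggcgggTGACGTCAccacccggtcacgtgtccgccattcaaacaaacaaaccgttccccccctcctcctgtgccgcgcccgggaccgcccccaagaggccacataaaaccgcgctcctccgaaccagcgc
Dusp5, chr1:262543524-262543773: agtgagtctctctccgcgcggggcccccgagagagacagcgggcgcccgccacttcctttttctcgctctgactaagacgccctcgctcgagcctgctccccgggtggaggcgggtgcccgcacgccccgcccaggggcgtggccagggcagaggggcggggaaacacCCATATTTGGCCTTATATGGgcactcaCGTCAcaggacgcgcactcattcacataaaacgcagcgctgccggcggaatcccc
Dusp6, chr7:35979354-35979501: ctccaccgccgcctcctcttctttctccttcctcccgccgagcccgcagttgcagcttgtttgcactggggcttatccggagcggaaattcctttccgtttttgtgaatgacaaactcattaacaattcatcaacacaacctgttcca

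Counted from the annotated start, the full CRE of Dusp1 began at position -124 and a further TGACG at position -172. TGACGTCA was present on either strand in 1.83% of the 33469 promoter windows of the table and TGACG, which it contains, in 21.2%. The Dusp5 window held 2 adjoining CArG boxes beginning at -82 and -72 and the short CRE motif on the minus strand at -55. It also held CCGGAA, a longer form of the ETS core GGAA, on the minus strand at position 5 after the start. A CArG box was present in 1.64% of windows and CCGGAA in 15.0%. The Dusp6 window held none of these matches, which says only that they are not in this window. The shorter GGAA was not searched for, and on either strand it occurs in every printed stretch, that of Dusp6 included. For Dusp6 the table's start lies inside the RefSeq gene, so the printed stretch is shorter, at 148 bases. These matches describe the sequence and were not tested as sites.

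**Figure D1:**
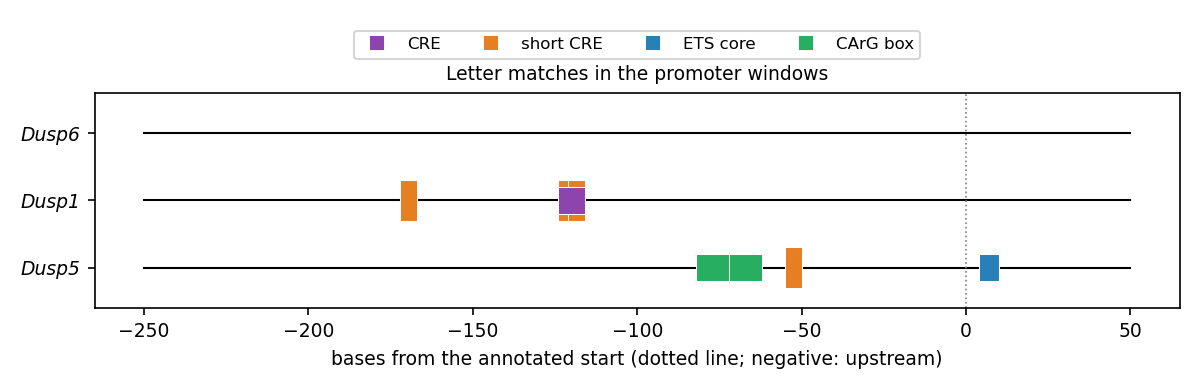
Letter matches in the promoter windows of Dusp6, Dusp1 and Dusp5. The horizontal axis is the distance in bases from the annotated start (dotted line). Boxes mark a CRE, the short CRE motif, an ETS core (searched only as CCGGAA) or a CArG box. Dusp1 carries the CRE at -124, Dusp5 the adjoining CArG boxes at -82 and -72, and Dusp6 none of these matches.

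Dusp6 had the largest fitted log2 fold change between treatments of the 4 phosphatases. Its level, in CPM (the share of a library's counts per 1000000, scaled by TMM), was 9.01, 10.7 and 11.2 in control replicates 1, 2 and 3 and 18.2, 18.3 and 16.9 in TRH replicates 1, 2 and 3. All 3 TRH libraries lay above all 3 controls, and the lowest TRH library (16.9 CPM) was well clear of the highest control (11.2 CPM). Controls averaged 10.3 ± 1.15 CPM and TRH libraries 17.8 ± 0.793 CPM (SD, n = 3 each). The fitted log2 fold change was 0.79 (SE 0.13, 95% interval 0.49 to 1.09), which is 1.73-fold (1.40 to 2.12). In such bulk libraries, more transcript per cell and more cells carrying it cannot be told apart.

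Nonoverlapping groups with higher values under TRH occurred in 956 of 14050 genes tested (6.8%), and 104 genes had a larger fitted log2 fold change than Dusp6. Because the gene was selected on this contrast, nothing is read from these shares. No gene passed edgeR's quasi-likelihood test with Benjamini-Hochberg adjustment over all genes, so 0 of the 4 phosphatases were called against a background of 0%. Without adjustment, 1263 genes (8.99%) had an edgeR p under 0.05. Dusp6 had an edgeR adjusted p of 0.395. The Wald test of DESeq2 called 119 of 11985 genes (0.993%), 16 higher and 103 lower with TRH, and Dusp6 was the 1 phosphatase among them (DESeq2 adjusted p = 0.000437). The call for Dusp6 thus depends on the tool.

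**Figure D2:**
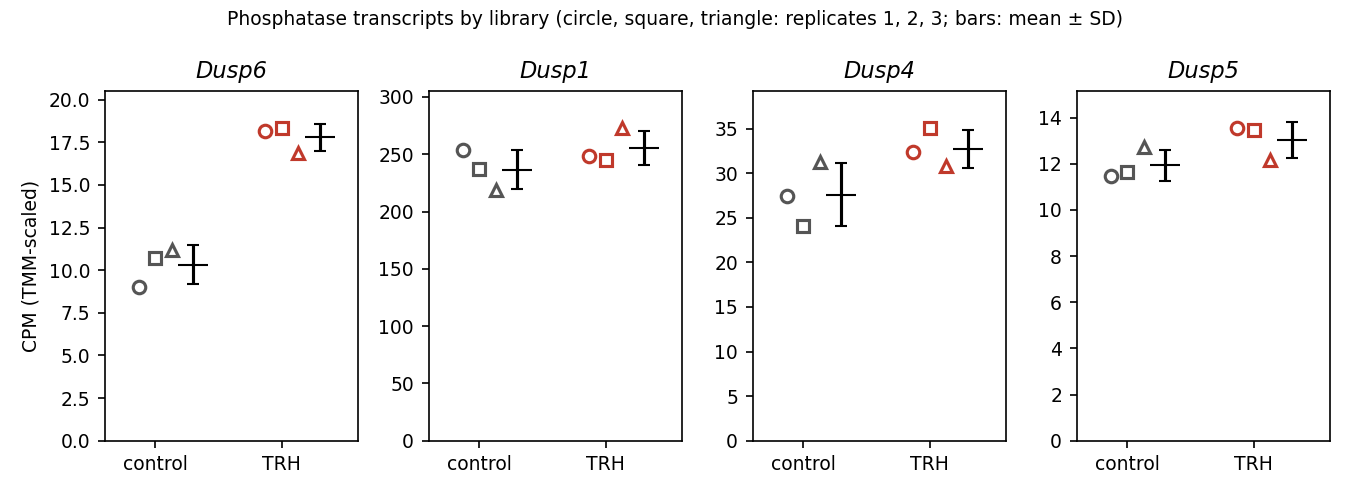
Level of each phosphatase transcript by library, in CPM with TMM scaling; circles, squares and triangles are replicates 1, 2 and 3, and bars show the mean and SD of 3 libraries. For Dusp6 the controls lie between 9.01 and 11.2 CPM and the TRH libraries between 16.9 and 18.3 CPM, whereas the groups overlap for Dusp1, Dusp4 and Dusp5.

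Dusp1, the broad-range nuclear phosphatase, was close to equal in both groups. It stood at 254, 237 and 219 CPM in control replicates 1, 2 and 3 and at 248, 245 and 273 CPM in TRH replicates 1, 2 and 3. Control replicate 1 exceeded 2 of the 3 TRH libraries, so the groups overlapped. The means were 237 ± 17.3 CPM and 256 ± 15.1 CPM (SD, n = 3 each), and the fitted log2 fold change was 0.11 (SE 0.093, 95% interval -0.10 to 0.32). The upper end of that interval is a 1.25-fold increase.

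Dusp4, the other nuclear enzyme of broader range, lay between these cases. Its controls stood at 27.5, 24.1 and 31.2 CPM in replicates 1, 2 and 3. The TRH libraries stood at 32.3, 35.1 and 30.8 CPM. Only control replicate 3 reached into the TRH range, where it exceeded TRH replicate 3. The means were 27.6 ± 3.57 CPM and 32.7 ± 2.14 CPM (SD, n = 3 each), with a fitted log2 fold change of 0.25 (SE 0.12, 95% interval -0.039 to 0.53).

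Dusp5, the nuclear ERK-selective enzyme, had 11.5, 11.7 and 12.7 CPM in control replicates 1, 2 and 3 and 13.6, 13.4 and 12.1 CPM in TRH replicates 1, 2 and 3. TRH replicate 3 was below control replicate 3, and the other 2 TRH libraries were above every control. The means were 11.9 ± 0.671 CPM and 13.05 ± 0.784 CPM (SD, n = 3 each). The fitted log2 fold change was 0.13 (SE 0.12, 95% interval -0.15 to 0.40). Of the ERK-selective pair, Dusp6 had an interval that began at 0.49 and Dusp5 one that ended at 0.40. The difference between them was not tested, since Dusp6 was selected on this contrast.

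The fitted log2 fold change was above 0 in 4 of 4 phosphatases, with a median of 0.19, against 6923 of 14050 genes tested (49.3%) and a median of -0.0040 over all of them. The phosphatases were chosen with this contrast known and share the same libraries, so nothing is read from their shared sign. A larger log2 fold change than that of Dusp4 was fitted for 1797 genes (12.8%), than that of Dusp5 for 3801 (27.1%) and than that of Dusp1 for 4165 (29.6%). The values of Dusp1 and Dusp5 therefore lay within the bulk of the distribution, and that of Dusp4 toward its upper side. The median absolute log2 fold change over all genes was 0.16.

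**Figure D3:**
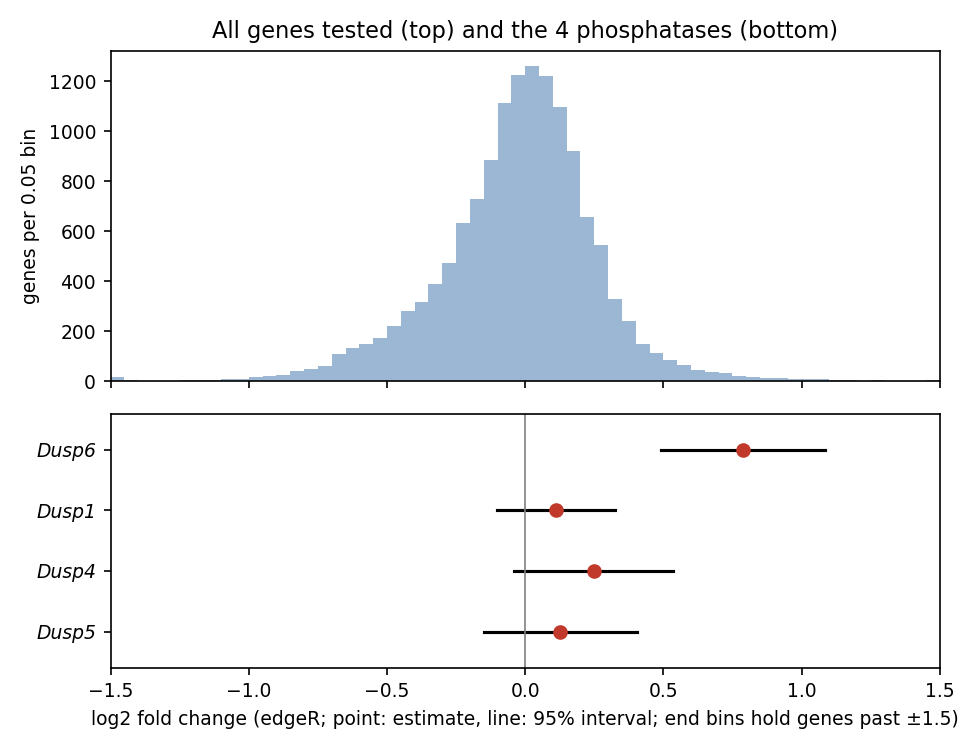
Fitted log2 fold change of TRH over control for all 14050 genes (top, genes per bin of the histogram) and for the 4 phosphatases (bottom, points with 95% intervals). Dusp6 at 0.79 lies in the upper tail, and the intervals of Dusp1, Dusp4 and Dusp5 include 0.

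The trend with gene length was read at the length of each phosphatase. At the length of Dusp4 (3976 bases) the average gene deviated on the log2 scale by 0.13, -0.060 and 0.085 in control replicates 1, 2 and 3 and by 0.011, 0.012 and -0.18 in TRH replicates 1, 2 and 3. Control replicates 1 and 3 were both high there and TRH replicate 3 was low, and the trend for TRH minus control was -0.10. At the length of Dusp6 (2754 bases) it was -0.054, at that of Dusp5 (2419 bases) -0.037 and at that of Dusp1 (1936 bases) -0.0057. With the trend taken out by offsets, the log2 fold change was 0.84 for Dusp6, 0.35 for Dusp4, 0.16 for Dusp5 and 0.12 for Dusp1. Without control replicate 1 and TRH replicate 3 together it was 0.74 for Dusp6, 0.29 for Dusp4, 0.15 for Dusp5 and 0.11 for Dusp1.

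Ratios within a library do not depend on how libraries are scaled to each other, so Dusp6 was also set against its relatives in the same library. Per count of Dusp5, Dusp6 had 0.786, 0.921 and 0.879 counts in control replicates 1, 2 and 3. With TRH the ratio was 1.34, 1.36 and 1.39 in replicates 1, 2 and 3. The ratio was thus below 1 in every control and above 1 in every TRH library, with means of 0.862 ± 0.0692 and 1.37 ± 0.0247 (SD, n = 3 each). Against Dusp4 it was 0.377 ± 0.0613 in controls and 0.544 ± 0.0199 with TRH, and against Dusp1 0.0440 ± 0.00783 and 0.0699 ± 0.00702 (SD, n = 3 each). For each of the 3 partners, the highest control ratio was below the lowest TRH ratio. These ratios reuse the Dusp6 counts on which the gene was selected, so they are descriptions and no separate support. How often the ratios of other genes separate in this way was not counted.

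The order of abundance was compared per length, in length-normalised TPM values, which sum to the same total in every library. Dusp1 was by far the most abundant, at 204 ± 12.2 TPM over the 6 libraries (SD, n = 6), above 94.0% of the genes tested. Dusp4 followed at 12.2 ± 1.74 TPM, Dusp5 at 8.31 ± 0.791 TPM and Dusp6 at 8.16 ± 2.35 TPM (SD, n = 6 each). These 3 lay near the middle of the distribution, above 45.5%, 37.0% and 36.7% of genes.

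Within a library, Dusp1 exceeded Dusp4 by 4.07 ± 0.21 on the log2 TPM scale (SD, n = 6), and by 14.4-fold to 20.2-fold in single libraries. It was higher in 6 of 6 libraries (two-sided exact sign-flip permutation test, p = 0.03125, adjusted over 3 neighbouring pairs 0.0469). Dusp4 exceeded Dusp5 by 0.55 ± 0.12 on the same scale, again in 6 of 6 libraries (exact permutation p = 0.03125, adjusted 0.0469). This is the smallest p that 6 libraries allow. The pairs were neighbours in the order of mean TPM over these same libraries, so the tests describe that order and are no separate support for it. For Dusp5 and Dusp6, with both groups pooled, the difference in log2 TPM was 0.071 ± 0.37 and Dusp5 was higher in 3 of 6 (exact permutation p = 0.594, adjusted 0.594). That spread includes the difference between the groups given next, so this p does not measure variation among replicates.

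That last pair changed order between the groups, a description that rests on the same selected Dusp6 counts. Dusp5 was above Dusp6 in all 3 controls, by 0.40 ± 0.12 on the log2 TPM scale, and below it in all 3 TRH libraries, by -0.26 ± 0.026 (SD, n = 3 each). In TPM, Dusp6 stood at 5.56, 6.11 and 6.78 in control replicates 1, 2 and 3 and at 10.7, 10.9 and 8.91 in TRH replicates 1, 2 and 3. Dusp5 stood at 8.05, 7.56 and 8.77 in controls and at 9.11, 9.09 and 7.29 with TRH, in the same order of replicates. Dusp6 was therefore the least abundant of the 4 in every control and the third in every TRH library. Dusp1 was first and Dusp4 was next in all 6.

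**Figure D4:**
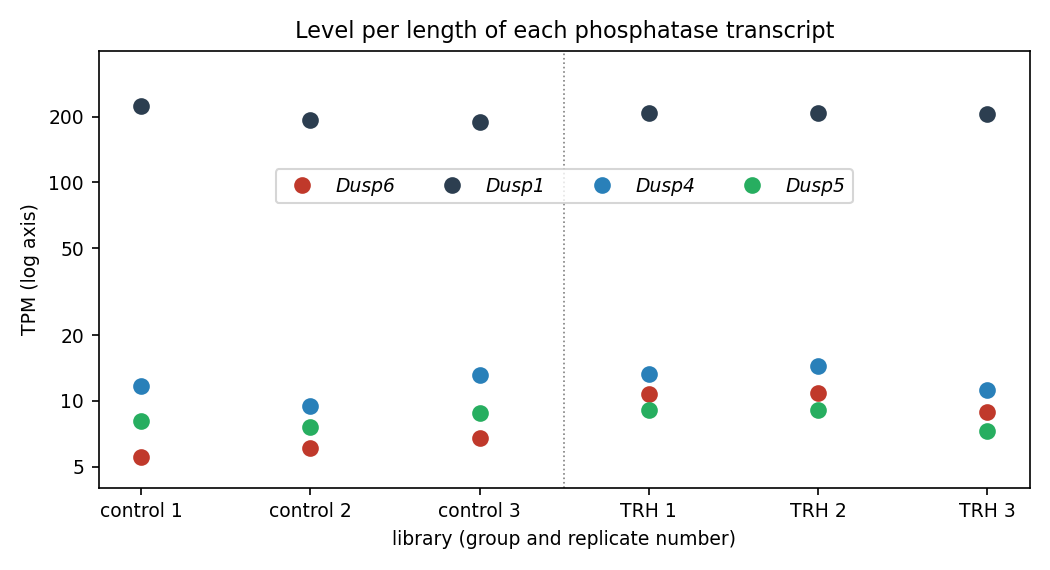
Level per length of the 4 phosphatase transcripts in each library, in TPM on a log axis, with controls on the left and TRH libraries on the right of the dotted line. Dusp1 lies between 189 and 222 TPM in every library, and Dusp6 lies below Dusp5 in the controls and above it in the TRH libraries.

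Counting error was compared with the spread between libraries. Dusp6 had 393 to 525 counts in controls and 751 to 943 with TRH, so counting alone gives an error of 3.26% to 5.04% per library. Its coefficient of variation between libraries was 11.1% in controls and 4.45% with TRH, on the CPM scale. Dusp1 had 10293 to 12881 counts, with a counting error under 1% and a coefficient of variation of 7.29% in controls and 5.92% with TRH. For Dusp4 the counting error was 2.44% to 3.01%, against 12.9% in controls and 6.55% with TRH. For Dusp5 it was 3.77% to 4.47%, against 5.62% in controls and 6.01% with TRH. Counting error was thus close to the spread for Dusp5 and for Dusp6 with TRH, and well under it for the others. edgeR also estimates the spread within groups, but draws each gene's value toward those of other genes, so it is not that gene's spread alone. This biological coefficient of variation was 13.2% for Dusp6, 10.1% for Dusp1 and 12.7% for both Dusp4 and Dusp5. Each was below the median of all genes tested, 15.0%. For Dusp1, 5.26% of genes had a smaller value.

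Over the 6 libraries, which share their scaling and the treatment groups, log2 CPM of Dusp4 and Dusp5 had a Pearson's r of 0.85. It was 0.79 for Dusp6 and Dusp5, 0.75 for Dusp6 and Dusp4, and 0.38 for Dusp6 and Dusp1. Dusp1 had an r of 0.085 with Dusp4 and of -0.17 with Dusp5. After each group's mean was taken out, r was 0.74 for Dusp6 and Dusp5, 0.71 for Dusp4 and Dusp5, 0.28 for Dusp6 and Dusp4, -0.60 for Dusp1 and Dusp4, -0.90 for Dusp6 and Dusp1 and -0.95 for Dusp1 and Dusp5. In controls, replicate 1 had the most Dusp1 and the least Dusp5 and Dusp6, and replicate 3 the reverse. In the TRH group the pattern came from replicate 3, which gave the highest Dusp1 and the lowest Dusp4, Dusp5 and Dusp6 of that group, and which also had the lowest value of the length trend at the lengths of those 3 genes. Control replicate 1 went the other way. It had the highest value of that trend at the lengths of Dusp5 (0.042) and Dusp6 (0.068), but the least of both among controls. The part of that trend in these correlations was not tested.

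Among 12553 genes with a mean of at least 1 CPM, the gene whose log2 CPM followed Dusp1 most closely over the 6 libraries was ENSRNOG00000018410 (r = 0.99), averaging 74.4 CPM in controls and 86.1 CPM in TRH libraries. For Dusp4 it was ENSRNOG00000025075 (r = 0.98), averaging 1.42 CPM in controls and 2.15 CPM in TRH libraries. An r of at least 0.9 was reached by 110 genes for Dusp1, 85 for Dusp4, 217 for Dusp5 and 197 for Dusp6. With 6 libraries and this many genes, such values describe these libraries only.

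**Figure D5:**
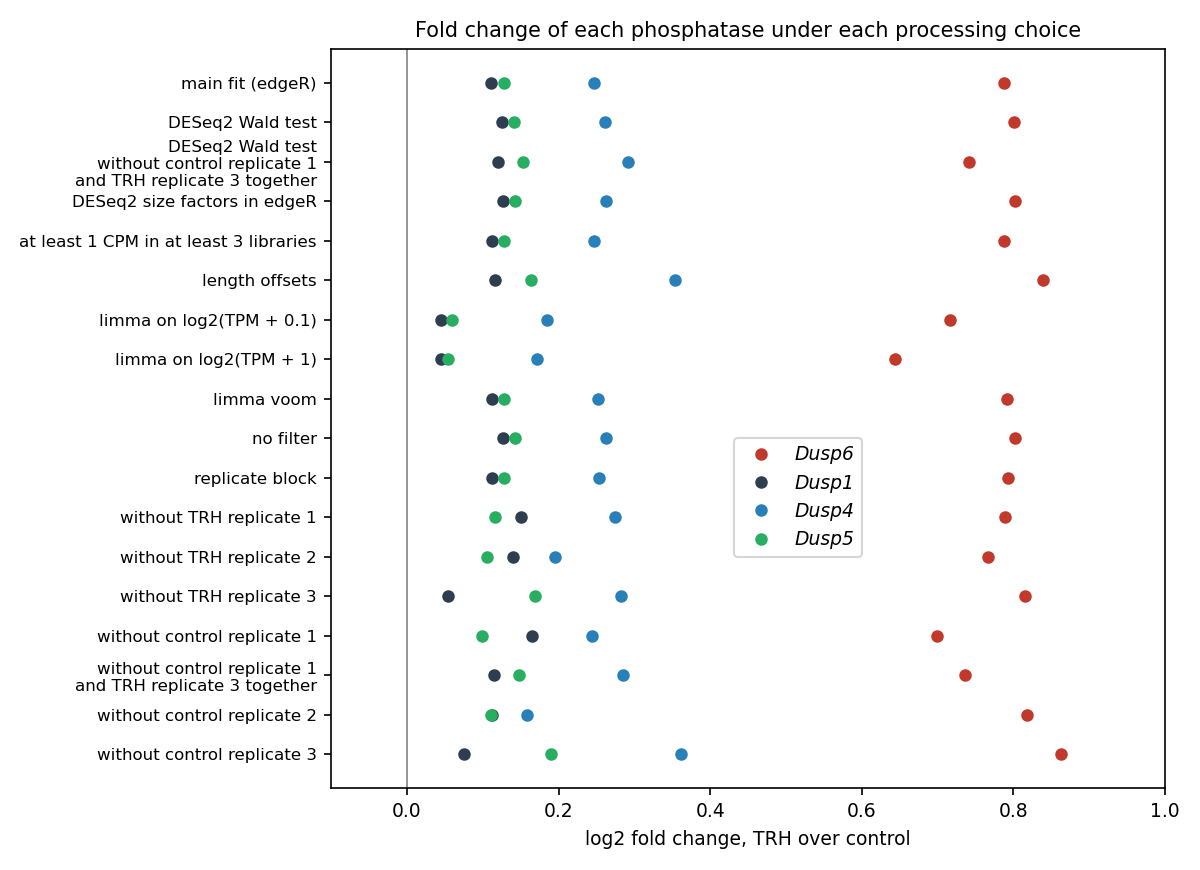
Log2 fold change of TRH over control for each phosphatase under each processing choice, 1 row per choice. Dusp6 stays between 0.64 and 0.86, and the other phosphatases lie between 0.044 and 0.36.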

How the data were processed

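RNA from 6 libraries of GH3 cells was sequenced on an Illumina XTen instrument, per the labels' protocols. HISAT2 and bedtools are named in the submitters' processing notes, with no version. The genome build, annotation, counting rule and strand setting are not stated in the labels or file headers, so reads of overlapping or antisense genes cannot be told apart. The authors deposited raw counts per Ensembl gene, and a table that repeats them (100% equal) with gene length, FPKM and TPM. Per the file headers this second table holds 1 length per gene beside the FPKM and TPM. FPKM were not used.

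Counts were fitted with edgeR 4.0.16 (R 4.3.3): TMM scaling, filterByExpr, quasi-likelihood F-test, Benjamini-Hochberg adjustment over 14050 genes, threshold 0.05. Alternatives were DESeq2 1.42.0, DESeq2 size factors in edgeR, limma 3.58.1 (voom, log2(TPM + 1), log2(TPM + 0.1)), other filters, length offsets (loess, span 0.5), a replicate block and left-out libraries. The main edgeR fit, DESeq2 and limma voom were also run on simulated counts, with a pass condition set for edgeR only. Levels of neighbouring members were compared by exact sign-flip tests within libraries. Log2 CPM for correlations used a prior count of 2. Named genes were the 4 members and, because no table paired identifiers with symbols (0 of 47357 RefSeq rows hold an Ensembl identifier), the closest pattern for the 2 most abundant members. Lists of other ERK pathway genes and of cell type markers are not analysed here for that reason. The members and lists were chosen with earlier results of these data known. Libraries of a group differed beyond counting error, with a chi-square of 13.7 to 110.0 for each degree of freedom.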

Additional observations from a re-analysis of the deposited data

How the results depend on the processing

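The log2 fold change was above 0 in 17 of 17 alternatives for each of the 4 phosphatases. These alternatives reuse the same libraries, so the shared sign is no separate support, and the main intervals of Dusp1, Dusp4 and Dusp5 include 0. The log2 fold change of Dusp6 ran from 0.64 with log2(TPM + 1) to 0.86 without control replicate 3, that of Dusp4 from 0.16 to 0.36, that of Dusp5 from 0.054 to 0.19 and that of Dusp1 from 0.044 to 0.16. Leaving out single libraries gave 0.70 to 0.86 for Dusp6 (edgeR adjusted p 0.307 to 0.795). Dusp6 was called in DESeq2's Wald test, at 0.80, and, in a test added after seeing the data, by DESeq2 without control replicate 1 and TRH replicate 3 together, at 0.74 (DESeq2 adjusted p = 0.0165). The cause of the difference between the tools was not tested. Dusp1, Dusp4 and Dusp5 were called in 0 of these 17 alternatives.

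The 0 genes called by edgeR became 119 with DESeq2's Wald test and 47 with DESeq2 without control replicate 1 and TRH replicate 3 together. Leaving out single libraries in edgeR gave 0 to 1 genes, and edgeR without control replicate 1 and TRH replicate 3 gave 1. That gene, ENSRNOG00000055166, was the same without TRH replicate 3 and without both libraries, is no phosphatase of this group, and was named after its values were seen. A replicate block in edgeR gave 0 calls, and with it the log2 fold change was 0.79 for Dusp6, 0.11 for Dusp1, 0.25 for Dusp4 and 0.13 for Dusp5. Deviations of equal-numbered libraries correlated at 0.29, -0.26 and -0.12, so the numbers were not taken as pairs.

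With 5 libraries the sign-flip test cannot pass its threshold, so leaving out single libraries gave no call by construction: the difference in log2 TPM was 4.02 to 4.12 for Dusp1 minus Dusp4, 0.52 to 0.59 for Dusp4 minus Dusp5 and -0.021 to 0.14 for Dusp5 minus Dusp6. The last was -0.021 without control replicate 1. On the log2 CPM scale, not divided by length, Dusp5 minus Dusp6 was -0.12. For Dusp5 the counting error of 3.77% to 4.47% per library was close to the coefficient of variation, 5.62% in controls and 6.01% with TRH. Those coefficients come from 3 libraries each, and edgeR's biological coefficient of variation for Dusp5, which draws on other genes, was larger at 12.7%. Whether depth limits Dusp5 was not tested. For Dusp6 with TRH the counting error was 3.26% to 3.65%, against a coefficient of variation of 4.45%. The largest counting error of any member, 5.04%, was that of Dusp6 in control replicate 1.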
